A study of Arabidopsis thaliana with 18 samples.

Results

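The comparison described here asks how the root response to the bacterium WCS417 differed between oxMYB72, a line that overexpresses the transcription factor MYB72, and its parent mutant myb72-2. For every probe set the response of a line was its mean level in colonized roots minus its mean level in untreated roots, and the response difference was the response of oxMYB72 minus the response of myb72-2. It rests on 12 of the 18 ATH1 arrays of the study, 3 in each of 4 groups, and was computed for 22746 probe sets. The other 6 arrays hold untreated and colonized roots of the wild type Col-0, whose values are given beside those of the lines compared.

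All plants were Arabidopsis thaliana seedlings of the Col-0 accession, grown on agar with 50 µM iron and harvested at an age of 19 days. The mutant myb72-2 carries the myb72-2 allele and no MYB72 overexpression construct. The line oxMYB72 carries the same myb72-2 allele and in addition 35S:FLAG-MYB72, a FLAG-tagged MYB72 driven by a viral promoter that is active in most tissues, not by the gene's own promoter. One such line was profiled. Each line was sampled untreated and after colonization by Pseudomonas fluorescens WCS417, which had been applied to the roots of plants 17 days old, 2 days before harvest. The study's description speaks of biological replicates without saying which plants or plates were kept apart, and a p-value here reflects the spread among these arrays, which may in part be technical.

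WCS417 is a beneficial rhizobacterium that primes the leaves of its host against later attack, a state called induced systemic resistance. MYB72 is a root transcription factor needed for that state, and it is also active in iron-starved roots. There it turns on genes that make and release coumarins, phenolic compounds that mobilize iron, and BGLU42, a beta-glucosidase that removes sugar from stored coumarins. Plant roots also recognize common bacterial molecules and answer with pattern-triggered immunity, in which small peptides, peroxidases and oxidases of the berberine bridge enzyme-like family are induced.

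The deposited values are RMA levels on the log2 scale, so a difference of 1 is a change of 2-fold. Array medians of the 12 arrays lay between 6.29 and 6.37, and the correlation of 2 replicate arrays over all probe sets was 0.9913 to 0.9977. No probe set bears the name MYB72 in the annotation used, so the mutated and overexpressed gene itself could not be checked. A list member counts as measured where a probe set names it as its single gene. All 6 measured root hair genes rose with WCS417 in both lines. Summed over these 6 genes, the log2 level went from 11.53 to 11.74 in untreated myb72-2 roots to 12.14 to 12.5 in colonized ones, and from 11.18 to 11.66 to 11.89 to 12.06 in oxMYB72. The difference between 3′ and 5′ control probe sets, a sign of RNA integrity, changed with WCS417 by 0.07 in myb72-2 and 0.15 in oxMYB72 for actin, by 0.03 and 0.15 for GAPDH, and by -0.11 and 0.01 for ubiquitin. In an older set of control probes on the same arrays the actin value changed by -0.36 and 0.01, that of GAPDH by -0.19 and -0.18, and that of ubiquitin by 0.04 and -0.07. The part of these shifts in the results below was not tested. Roots are mixtures of cells, and fewer cells of a type cannot be told apart from less RNA per cell.

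The response differed between the lines for 633 probe sets (2.78% of those tested) at an adjusted p under 0.05 in limma. For 422 of them (1.86%) the response was smaller in oxMYB72, which includes rises that were weaker or absent and falls that were deeper. For 211 (0.928%) it was larger, which includes rises that were stronger and falls that were weaker or absent. The smaller responses were also further apart, with a median response difference of -1.01, and 214 of the 422 differed at least 2-fold and 67 at least 4-fold. The larger ones had a median of 0.74, and 42 of 211 differed at least 2-fold and 2 at least 4-fold. Over all probe sets the median response difference was 0.05, and 5% of values lay below -0.38 and 5% above 0.43. After each array was centred on its median, the median of all probe sets was -0.01 and the split was 124 larger and 488 smaller, so the share of larger responses fell from 33.3% to 20.3%. It was 25.5% after a further quantile normalization. Exactly 1 gene was named for 212 of the 422 and 96 of the 211 probe sets.

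**Figure D1:**
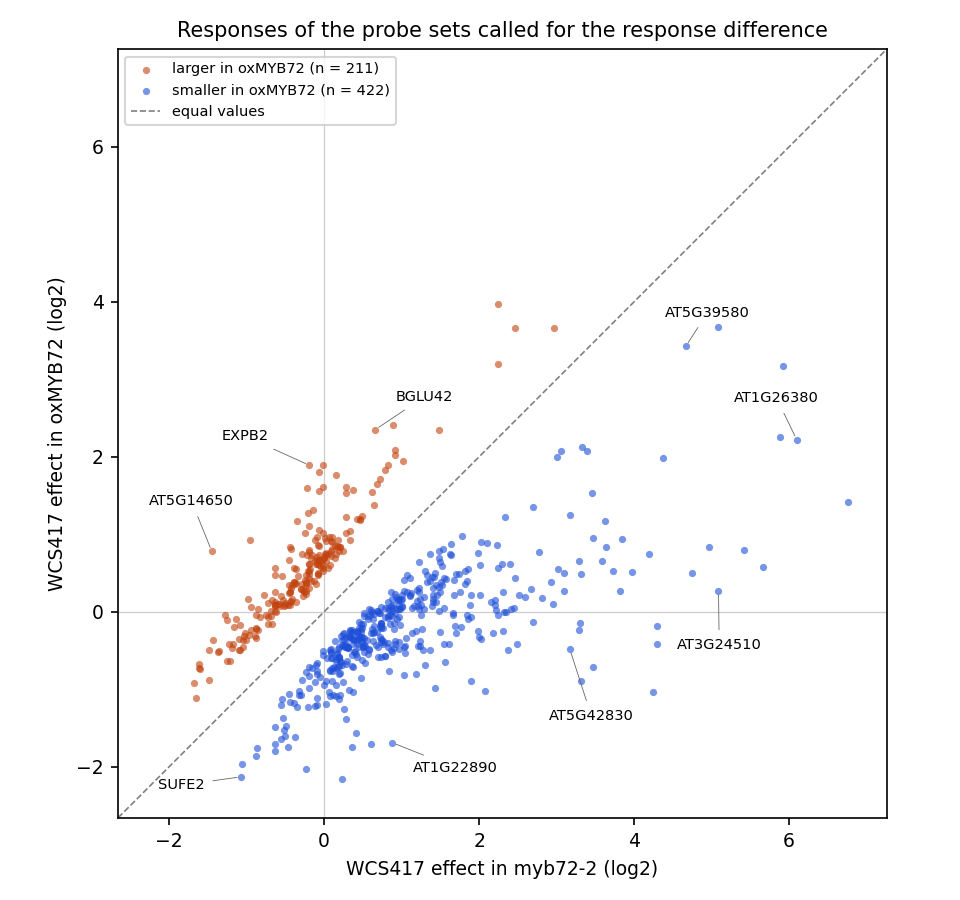
WCS417 effect in oxMYB72 (vertical axis, log2) against that in myb72-2 (horizontal axis, log2) for the 633 probe sets with a called response difference. Points are probe sets, and the dashed line marks equal effects. The 422 smaller responses lie below it, some of them, such as AT3G24510, near the horizontal zero line, and the 211 larger ones lie above it.

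Most of the smaller responses were rises of the mutant that were not called as rises in oxMYB72. A missing call does not show that a rise was absent. Of the 422 probe sets, 191 rose with WCS417 in myb72-2 and were not called in oxMYB72. A further 65 rose in myb72-2 and fell in oxMYB72, and 56 rose in both. Another 89 fell in oxMYB72 and were not called in myb72-2, 17 fell in both, and 4 were called in neither. The median effect of WCS417 over the 422 was 0.84 in myb72-2 and -0.25 in oxMYB72. Over all probe sets tested, 21.4% were called with WCS417 in myb72-2, 8.52% higher and 12.9% lower, and 19.3% in oxMYB72, 10.2% higher and 9.09% lower. These effects share arrays with the response difference that chose the probe sets, so they describe where the difference lies and do not test it again. Without oxMYB72 control replicate 2 the 65 opposite responses became 39 and the 89 falls of oxMYB72 alone became 49. Those 89 became 57 without myb72-2 control replicate 3 and 58 without oxMYB72 WCS417 replicate 2.

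The gap between the lines could lie in colonized roots, in untreated roots, or in both. It was called in colonized roots only, with oxMYB72 lower, for 192 of the 422 probe sets. For 111 it was called in untreated roots only, with oxMYB72 higher there. At 45 oxMYB72 was higher when untreated and lower when colonized. At 56 it was higher under both conditions, at 11 lower under both, and 7 had no called gap. Over all probe sets tested the gap was called at 6.81% in untreated roots, with oxMYB72 higher at 3.53% and lower at 3.27%. In colonized roots it was called at 5.52%, higher at 2.86% and lower at 2.66%.

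**Figure D2:**
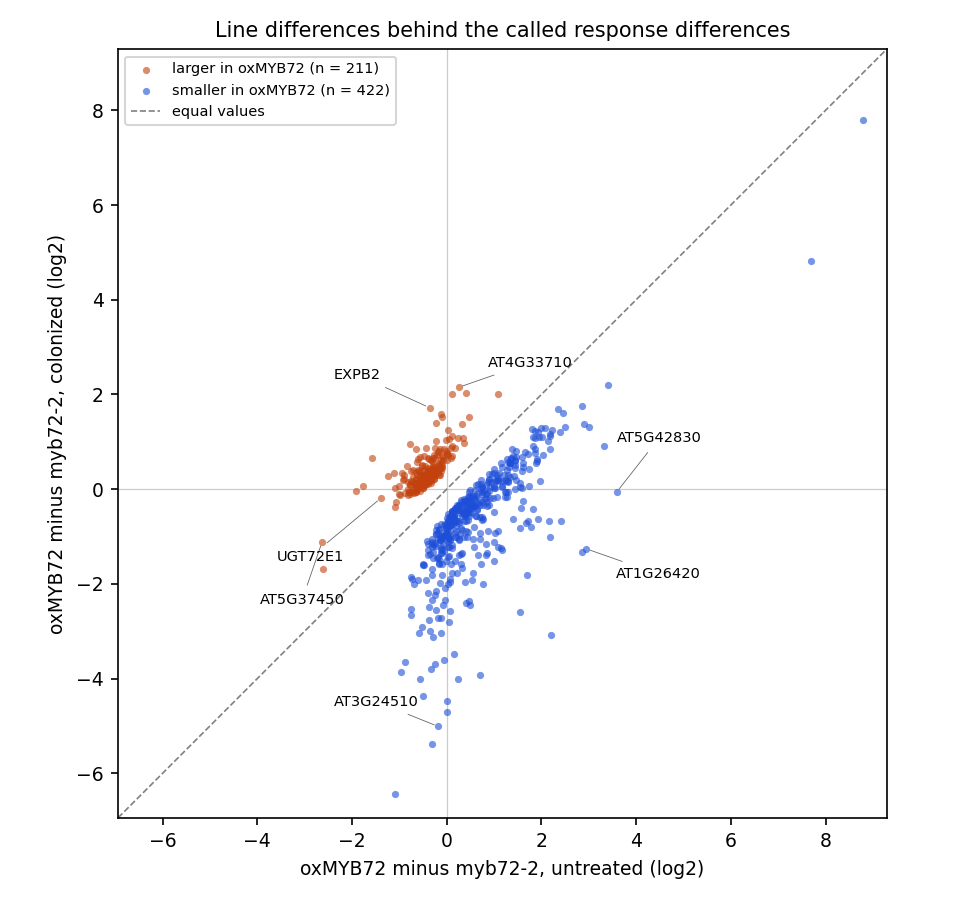
Level in oxMYB72 minus level in myb72-2 in colonized roots (vertical axis, log2) against the same in untreated roots (horizontal axis, log2) for the 633 probe sets with a called response difference. Smaller responses form a branch that runs down at an untreated gap near 0, where AT3G24510 lies, and a branch of probe sets that are higher in untreated oxMYB72, where AT5G42830 lies. The points at the upper right are a probe set with no single named gene (8.79 untreated) and AT4G33720 (7.69 untreated).

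The lowest response difference of a named gene was that of AT3G24510, which encodes a defensin-like protein, one of the small cysteine-rich peptides related to antimicrobial defensins. Its levels in untreated myb72-2 roots were 3.12, 3.81 and 3.28, and in colonized ones 8.4, 8.5 and 8.58. In oxMYB72 they were 3.31, 3.35 and 3.0 untreated and 3.25, 3.99 and 3.22 colonized. The colonized mutant arrays stood far above the other 9, and the colonized oxMYB72 arrays overlapped the untreated ones. The gene rose by 5.09 ± 0.18 (standard error) in myb72-2 and differed by 0.27 ± 0.18 in oxMYB72, a response difference of -4.82 ± 0.25 or 28.3-fold (limma adjusted p = 2.75e-10).

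Genes of secreted immune peptides followed the same course. AT4G37290, AT2G23270 and AT4G28460 encode precursors of the PIP family, peptides that are secreted when plants sense microbial patterns and that amplify immune signalling. AT4G37290 stood at 4.55, 4.87 and 4.39 in untreated and at 8.37, 9.41 and 8.92 in colonized myb72-2 roots. In oxMYB72 it stood at 4.68, 4.44 and 4.7 untreated and 4.23, 4.53 and 4.5 colonized. The mutant's groups did not overlap, whereas those of oxMYB72 did. The response difference was -4.49 ± 0.28, or 22.4-fold (limma adjusted p = 2.25e-09). AT2G23270 rose by 3.97 ± 0.22 in myb72-2 and was not called in oxMYB72 (0.51 ± 0.22), and AT4G28460 rose by 3.32 ± 0.31 in myb72-2 and was not called in oxMYB72 (0.49 ± 0.31). Their response differences were -3.46 ± 0.32 (adjusted p = 3.71e-07) and -2.83 ± 0.44 (adjusted p = 0.000375).

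The berberine bridge enzyme-like genes on chromosome 1 held the largest rises of the mutant among the named genes. These enzymes are secreted flavin oxidases, and members of the family oxidize cell wall fragments or take part in making defence compounds. AT1G26410 stood at 3.1, 4.29 and 3.28 in untreated and 8.08, 8.5 and 8.34 in colonized myb72-2 roots, and at 3.42, 3.71 and 4.27 and then 4.37, 4.8 and 3.73 in oxMYB72. Its colonized mutant arrays lay above all others, and the oxMYB72 groups overlapped, with a response difference of -4.25 ± 0.37 (adjusted p = 2.24e-07). AT1G26390 and AT1G26380 rose in both lines, by 5.89 ± 0.37 and 6.1 ± 0.55 in myb72-2 and by 2.26 ± 0.37 and 2.22 ± 0.55 in oxMYB72. Their response differences were -3.64 ± 0.53 (adjusted p = 0.000169) and -3.88 ± 0.78 (adjusted p = 0.00597).

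The untreated mutant arrays were uneven in these genes. AT1G26380 stood at 6.96 in replicate 2 and at 3.66 and 3.86 in the other two. Replicate 2 was the highest untreated mutant array for 18 of the 24 named genes with a smaller response, and for 202 of all 422 such probe sets (47.9%). Replicate 2 of the colonized mutant was the highest of its group for 15 of the 24 and 233 of the 422 (55.2%). Colonized oxMYB72 was uneven too, with replicate 1 the highest for 15 of the 24 and 201 of the 422 (47.6%). AT1G26380 stood at 7.22, 6.91 and 5.54 in that group. The same shares over all probe sets were not computed. Without untreated mutant replicate 2 the response difference of AT1G26380 was -4.94, that of AT1G26390 was -4.31, and 361 smaller responses were called. With a variance trend and robust moderation AT1G26380 was not called (adjusted p = 0.0617).

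AT1G26420, next to AT1G26410, followed another course. In untreated roots it stood at 3.76, 4.18 and 3.89 in myb72-2 and at 6.67, 7.0 and 7.01 in oxMYB72. In colonized roots it stood at 6.63, 7.54 and 7.61 in myb72-2 and at 6.16, 6.15 and 5.69 in oxMYB72. The gene therefore rose by 3.31 ± 0.2 in the mutant and fell by 0.89 in oxMYB72, and the response difference was -4.21 ± 0.29 (adjusted p = 6.39e-09). AT1G26400, numbered between AT1G26390 and AT1G26410, had a response difference of -0.03 ± 0.17 at a low mean level of 3.18.

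**Figure D3:**
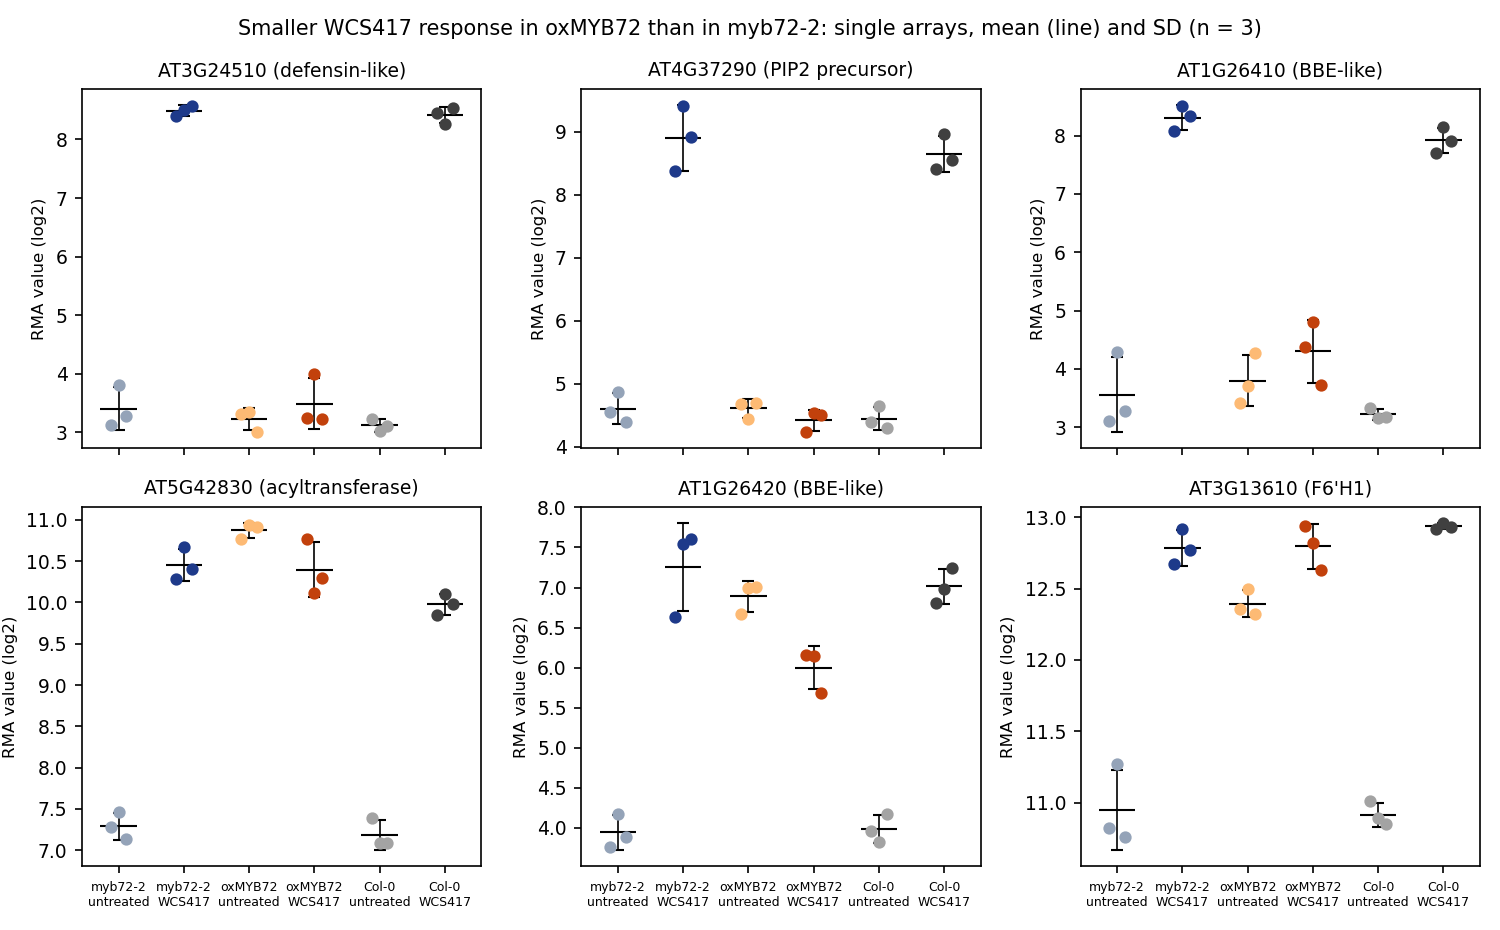
RMA level (vertical axis, log2) of 6 genes with a smaller WCS417 response in oxMYB72, by group (horizontal axis); points are single arrays, lines are means and bars are SD (n = 3). In the upper row the colonized myb72-2 and Col-0 arrays stand above both oxMYB72 groups. In the lower row the untreated oxMYB72 arrays stand above the untreated myb72-2 and Col-0 arrays.

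Further genes rose in colonized mutant roots and less, or not by test, in oxMYB72. AT5G38910, a germin-like protein of the cupin superfamily, rose by 4.97 ± 0.31 in myb72-2 and was not called in oxMYB72 (0.83 ± 0.31), a response difference of -4.15 ± 0.44 (adjusted p = 2.69e-06). Its level was higher in untreated oxMYB72 by 1.55 ± 0.31 and lower when colonized (-2.6 ± 0.31). AT5G22555 rose by 3.82 ± 0.19 and was not called in oxMYB72 (0.27 ± 0.19). AT3G18250 rose by 3.29 ± 0.23 in myb72-2 and was not called in oxMYB72 (-0.23 ± 0.23), with oxMYB72 higher by 1.69 ± 0.23 untreated and lower when colonized (-1.82 ± 0.23).

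Class III peroxidases, secreted enzymes that use hydrogen peroxide to crosslink or loosen cell walls, were split. Of 53 measured members 7 had a smaller and 1 a larger response (1.86% and 0.928% of all probe sets), and the median response difference was -0.05. AT5G06730 stood at 6.2, 5.9 and 5.98 in untreated and 8.8, 9.66 and 9.49 in colonized myb72-2 roots. It stood at 5.5, 5.73 and 5.77 in untreated and 6.28, 6.55 and 6.15 in colonized oxMYB72 roots. The groups were apart within each line, and the rise was 3.29 ± 0.18 in the mutant and 0.66 ± 0.18 in oxMYB72. The response difference was -2.63 ± 0.25, or 6.17-fold (adjusted p = 6.94e-07). AT5G19880 rose by test in myb72-2 and not in oxMYB72 (1.66 ± 0.2 against -0.02 ± 0.2), with a response difference of -1.68 ± 0.28. In Col-0 it rose by 0.97 ± 0.2. AT5G39580 rose strongly in both, by 4.67 ± 0.18 and 3.43 ± 0.18, with a response difference of -1.23 ± 0.25. The member with a larger response in oxMYB72, AT5G64120, was looked at after its values were seen and rose by 3.2 ± 0.13 there and 2.24 ± 0.13 in myb72-2.

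A second kind of smaller response came from genes that were higher in untreated oxMYB72 than in untreated myb72-2 roots. AT5G42830 encodes an acyltransferase of the HXXXD family, enzymes that join acyl groups to plant metabolites. In untreated roots it stood at 7.28, 7.46 and 7.13 in myb72-2 and at 10.77, 10.94 and 10.91 in oxMYB72. In colonized roots it stood at 10.29, 10.67 and 10.41 in myb72-2 and at 10.77, 10.12 and 10.3 in oxMYB72. The colonized groups overlapped, and the untreated ones were far apart (3.59 ± 0.15, adjusted p = 4.3e-13). It rose by 3.17 ± 0.15 in the mutant and fell by 0.48 in oxMYB72, a response difference of -3.65 ± 0.21 or 12.5-fold (adjusted p = 7.16e-10). AT5G53990, a glycosyltransferase of the UGT family, was higher in untreated oxMYB72 by 1.83 ± 0.16. By test it rose in myb72-2 and not in oxMYB72 (1.99 ± 0.16 against -0.25 ± 0.16), and it rose in Col-0 (2.24 ± 0.16). AT5G38900, a thioredoxin-like protein of the DsbA family, was higher in untreated oxMYB72 by 2.19 ± 0.18 and lower in colonized oxMYB72 (-1.02 ± 0.18). It rose by 3.73 ± 0.18 in the mutant and 0.53 ± 0.18 in oxMYB72. AT3G60270, a blue copper protein of the cupredoxin family, was higher in untreated oxMYB72 by 1.71 ± 0.2, and its colonized gap was not called (-0.68 ± 0.2, adjusted p = 0.0515). It rose by 4.37 ± 0.2 in myb72-2 and 1.98 ± 0.2 in oxMYB72.

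Genes of coumarin synthesis and export belonged to this kind in part. Of 7 measured members 4 had a smaller and 1 a larger response (1.86% and 0.928% of all probe sets), and the median response difference was -0.64. AT3G13610 encodes feruloyl-CoA 6-hydroxylase, the enzyme that commits feruloyl-CoA to the coumarin scopoletin. It stood at 10.82, 11.27 and 10.76 in untreated myb72-2 roots and at 12.36, 12.5 and 12.32 in untreated oxMYB72 roots. With WCS417 the values were 12.67, 12.92 and 12.77 in myb72-2 and 12.94, 12.82 and 12.63 in oxMYB72. The colonized groups overlapped (0.01 ± 0.12) and the untreated ones did not (1.45 ± 0.12). The gene rose by 1.84 ± 0.12 in the mutant and by 0.4 ± 0.12 in oxMYB72, a response difference of -1.43 ± 0.17 (adjusted p = 1.21e-05). AT3G12900 and HCT, of neighbouring steps, were looked at after their values were seen. AT3G12900, scopoletin 8-hydroxylase, which makes the iron-mobilizing coumarin fraxetin, rose by 5.09 ± 0.21 in the mutant and 3.68 ± 0.21 in oxMYB72 and was higher in untreated oxMYB72 by 1.54 ± 0.21. CCOAMT, a methyltransferase related to those that make feruloyl-CoA, rose by 1.86 ± 0.29 in the mutant and was not called in oxMYB72 (-0.1 ± 0.29), and here the gap was in colonized roots (-1.9 ± 0.29). Its untreated oxMYB72 arrays were wide apart, at 7.29, 6.31 and 5.41, and the colonized ones stood at 6.28, 6.19 and 6.24. The response difference of CCOAMT lay between -2.43 and -1.49 over the 18 alternatives. HCT, an acyltransferase of phenylpropanoid synthesis, was higher in oxMYB72 under both conditions, by 2.34 ± 0.11 and 1.7 ± 0.11, and its response difference of -0.64 ± 0.16 was called in 11 of 18 alternatives.

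The strongest opposite responses named were those of AT1G26420, AT3G16530, AT1G22890 and AT2G29340, besides AT5G42830. AT3G16530 is a lectin-like gene induced by chitin. It stood at 5.45, 5.64 and 5.76 and then 7.26, 8.01 and 7.26 in myb72-2, and at 6.55, 6.37 and 6.24 and then 5.91, 5.48 and 5.11 in oxMYB72. The mutant's colonized arrays lay above its untreated ones, and those of oxMYB72 lay below. It rose by 1.89 ± 0.21 and fell by 0.89, a response difference of -2.78 ± 0.29 (adjusted p = 2.09e-06). AT1G22890 rose by 0.88 ± 0.18 in myb72-2 and fell by 1.69 in oxMYB72. AT2G29340, a short-chain dehydrogenase, rose by 0.41 ± 0.13 in myb72-2 and fell by 1.57 in oxMYB72, from an untreated level that was 1.57 ± 0.13 above the mutant's.

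SUFE2, a plastid protein that activates sulfur delivery for iron-sulfur clusters, fell in both lines, by 1.07 in the mutant and by 2.13 in oxMYB72. It stood at 8.96, 9.16 and 9.0 in untreated myb72-2 and at 10.02, 9.75 and 9.48 in untreated oxMYB72 roots. In colonized roots the values were 7.6, 8.19 and 8.11 and then 7.42, 7.55 and 7.9, so the lines overlapped there but not when untreated. The response difference was -1.06 ± 0.23 (adjusted p = 0.0103).

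The larger responses also fell into several kinds. Of the 211 probe sets, 96 rose in oxMYB72 and were not called in myb72-2, 60 fell in myb72-2 and were not called in oxMYB72, 22 rose in both, 20 fell in both, 11 fell in myb72-2 and rose in oxMYB72, and 2 were called in neither. The gap between the lines was called in untreated roots only, with oxMYB72 lower, for 106 of them, and in colonized roots only, with oxMYB72 higher, for 66. At 9 oxMYB72 was lower untreated and higher colonized, at 2 higher in both, at 2 lower in both, and 26 had no called gap. Counts of larger responses depended on single arrays: 113 were called without oxMYB72 control replicate 2, 126 without oxMYB72 WCS417 replicate 2, 127 without myb72-2 control replicate 3 and 134 without myb72-2 control replicate 1. The 106 became 49, 64, 54 and 55 in that order, and 65 without myb72-2 control replicate 2. The 66 became 41 and 43 without the first and second of these arrays. The 96 rises of oxMYB72 became 49 without oxMYB72 control replicate 2, 50 without oxMYB72 WCS417 replicate 2, 59 without myb72-2 control replicate 1 and 61 without myb72-2 control replicate 3. The 60 falls of myb72-2 became 33 without myb72-2 control replicate 3 and 37 without oxMYB72 control replicate 2 or 3. They became 96 without myb72-2 WCS417 replicate 3 or oxMYB72 WCS417 replicate 1, where the rises of oxMYB72 numbered 91 and 92, so which of these kinds was larger turned with single arrays. The 11 opposite responses became 3 without myb72-2 control replicate 3 and 4 without myb72-2 WCS417 replicate 2. They became 5 without oxMYB72 control replicate 2, and 7 without oxMYB72 control replicate 3 or oxMYB72 WCS417 replicate 3. Processing moved these counts too. After median centring of all arrays the 106 became 59, the 60 became 31 and the 96 became 58. With only the 12 arrays compared they became 63, 33 and 58, and the 66 became 43.

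One kind was led by genes that rose in oxMYB72 and also in Col-0. BGLU42 stood at 7.45, 7.4 and 7.24 in untreated and at 8.13, 7.96 and 7.97 in colonized myb72-2 roots. In oxMYB72 it stood at 7.31, 7.16 and 7.28 untreated and 9.56, 9.86 and 9.38 colonized. Each line's groups were apart, and the untreated groups of the lines overlapped. The gene rose by 0.66 ± 0.12 in the mutant and 2.35 ± 0.12 in oxMYB72, a response difference of 1.69 ± 0.17 or 3.23-fold (adjusted p = 1.09e-06). In Col-0 it rose by 2.17 ± 0.12, from 7.4 ± 0.11 to 9.58 ± 0.17 (SD, n = 3).

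CYP71B5, a cytochrome P450, stood at 3.37, 3.29 and 3.49 and then 3.61, 3.43 and 3.57 in myb72-2. In oxMYB72 it stood at 3.33, 3.29 and 3.24 untreated and at 4.64, 5.44 and 5.08 colonized. Its colonized oxMYB72 arrays lay above all arrays of the mutant, and the untreated levels of the lines overlapped (-0.1 ± 0.16). The response difference was 1.61 ± 0.22 (adjusted p = 7.95e-05). AT5G55620 stood at 3.22, 3.26 and 3.32 and then 3.35, 3.31 and 3.12 in myb72-2, and at 3.71, 3.74 and 3.59 and then 5.49, 5.65 and 4.71 in oxMYB72. Its response difference was 1.61 ± 0.24 (adjusted p = 0.000225), and in Col-0 it rose by 1.79 ± 0.17.

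Iron regulators included 2 genes with a larger response among 10 measured and none with a smaller one (0.928% and 1.86% of all probe sets), and the median response difference was 0.28. BHLH101, a transcription factor of the iron deficiency response, stood at 5.16, 5.37 and 5.16 untreated and 4.8, 5.21 and 5.49 colonized in myb72-2. In oxMYB72 it stood at 5.31, 4.9 and 4.8 untreated and 6.34, 6.85 and 6.48 colonized. The mutant's groups overlapped and those of oxMYB72 did not, with a response difference of 1.62 ± 0.24 or 3.08-fold (adjusted p = 0.00022). In Col-0 the effect was 0.46 ± 0.17 (adjusted p = 0.0791). AT1G18910, a ubiquitin ligase of the BTSL type that restrains iron uptake, rose by 0.75 ± 0.11 in oxMYB72 and was not called in myb72-2 (0.15 ± 0.11). Its response difference of 0.6 ± 0.16 (adjusted p = 0.0399) lost its call in 13 of 18 alternatives. AT1G47400, an iron-responsive small peptide looked at after its values were seen, rose by 1.63 ± 0.25 in myb72-2 and 1.52 ± 0.25 in oxMYB72 (response difference -0.12 ± 0.35).

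Of 4 measured genes of iron uptake and metal transport, a list that here includes CYP71B5, that gene was the called one (0.928% of all probe sets were called larger). AT3G58060, a manganese transporter, rose by 3.27 ± 0.15 in the mutant and 3.89 ± 0.15 in oxMYB72, and its response difference of 0.62 ± 0.22 was not called (adjusted p = 0.182). It stood at 0.45 to 0.77 over 18 alternatives, in which it was never called.

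Some larger responses were rises of oxMYB72 that neither the mutant nor the wild type showed by test. EXPB2 encodes a beta-expansin, a protein that loosens cell walls. It stood at 6.17, 5.61 and 5.67 and then 6.14, 5.43 and 5.31 in myb72-2, and at 5.23, 5.67 and 5.47 and then 7.57, 7.45 and 7.02 in oxMYB72. The colonized oxMYB72 arrays stood above the other 9, and its response difference was 2.08 ± 0.3 or 4.22-fold (adjusted p = 0.000148). In Col-0 the effect was 0.2 ± 0.21 (adjusted p = 0.623). AT3G29970, a B12D family protein, rose by 1.53 ± 0.11 in oxMYB72 and was not called in myb72-2 (0.28 ± 0.11) or Col-0 (0.3 ± 0.11), and its response difference was 1.24 ± 0.16 (adjusted p = 2.54e-05).

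AT4G33710, a secreted protein of the CAP superfamily to which pathogenesis-related protein PR-1 belongs, stood at 6.07, 6.04 and 4.06 in colonized oxMYB72 roots. Its other 9 arrays in the lines compared lay between 3.09 and 3.66. The third colonized array was thus well below the first and second. Its response difference of 1.9 ± 0.45 (adjusted p = 0.0216) lost its call in 7 of 17 alternatives, among them those without oxMYB72 WCS417 replicate 1 (1.56) or 2 (1.58), and was 2.57 without replicate 3. Its neighbour AT4G33720, also of the CAP superfamily and looked at after its values were seen, differed the other way (-2.87 ± 0.52, adjusted p = 0.00197). AT4G33720 stood at 13.08, 13.14 and 13.21 in untreated oxMYB72 and at 6.74, 4.6 and 5.01 in untreated myb72-2 roots. It rose by 2.37 ± 0.36 in myb72-2 and was not called in oxMYB72 (-0.5 ± 0.36). In colonized roots it was still higher in oxMYB72, by 4.82 ± 0.36.

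AT5G14650, a pectin lyase-like protein that may act on pectin of the cell wall, had the largest of these response differences. It stood at 9.24, 8.96 and 9.09 in untreated and 8.43, 7.15 and 7.34 in colonized myb72-2 roots. In oxMYB72 it stood at 7.88, 7.71 and 6.95 and then 7.91, 8.22 and 8.73. It fell by 1.45 in the mutant and was not called in oxMYB72 (0.78 ± 0.31, adjusted p = 0.0823), a response difference of 2.23 ± 0.43 or 4.7-fold (adjusted p = 0.00409). The gap between the lines was called in untreated roots (-1.58 ± 0.31) and not in colonized ones (0.65 ± 0.31). AT1G70880, a protein related to the birch pollen allergen Bet v 1, fell by 1.28 in the mutant and was not called in oxMYB72 (-0.04 ± 0.12).

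Other larger responses were rises from a low untreated level in oxMYB72. UGT72E1, a glucosyltransferase that acts on phenylpropanoid aldehydes, stood at 9.8, 9.86 and 9.78 in untreated myb72-2 and at 8.33, 8.46 and 8.49 in untreated oxMYB72 roots. With WCS417 it stood at 10.2, 10.25 and 10.11 in myb72-2 and 10.2, 9.99 and 9.8 in oxMYB72. The untreated groups were apart by -1.39 ± 0.1 and the colonized ones overlapped (-0.19 ± 0.1). Its response difference was 1.2 ± 0.14 or 2.3-fold (adjusted p = 1.18e-05). AT5G37450, a leucine-rich repeat receptor-like kinase, was lower in oxMYB72 under both conditions, by -2.63 ± 0.16 untreated and -1.11 ± 0.16 colonized, and rose by 0.89 ± 0.16 and 2.41 ± 0.16. PR-1-LIKE rose by 1.17 ± 0.16 in oxMYB72 and was not called in myb72-2 (-0.35 ± 0.16), with untreated oxMYB72 lower by -1.24 ± 0.16. SP1L2, a microtubule-associated protein of the SPIRAL1 family, rose by 0.84 ± 0.19 in oxMYB72 and was not called in myb72-2 (-0.44 ± 0.19).

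**Figure D4:**
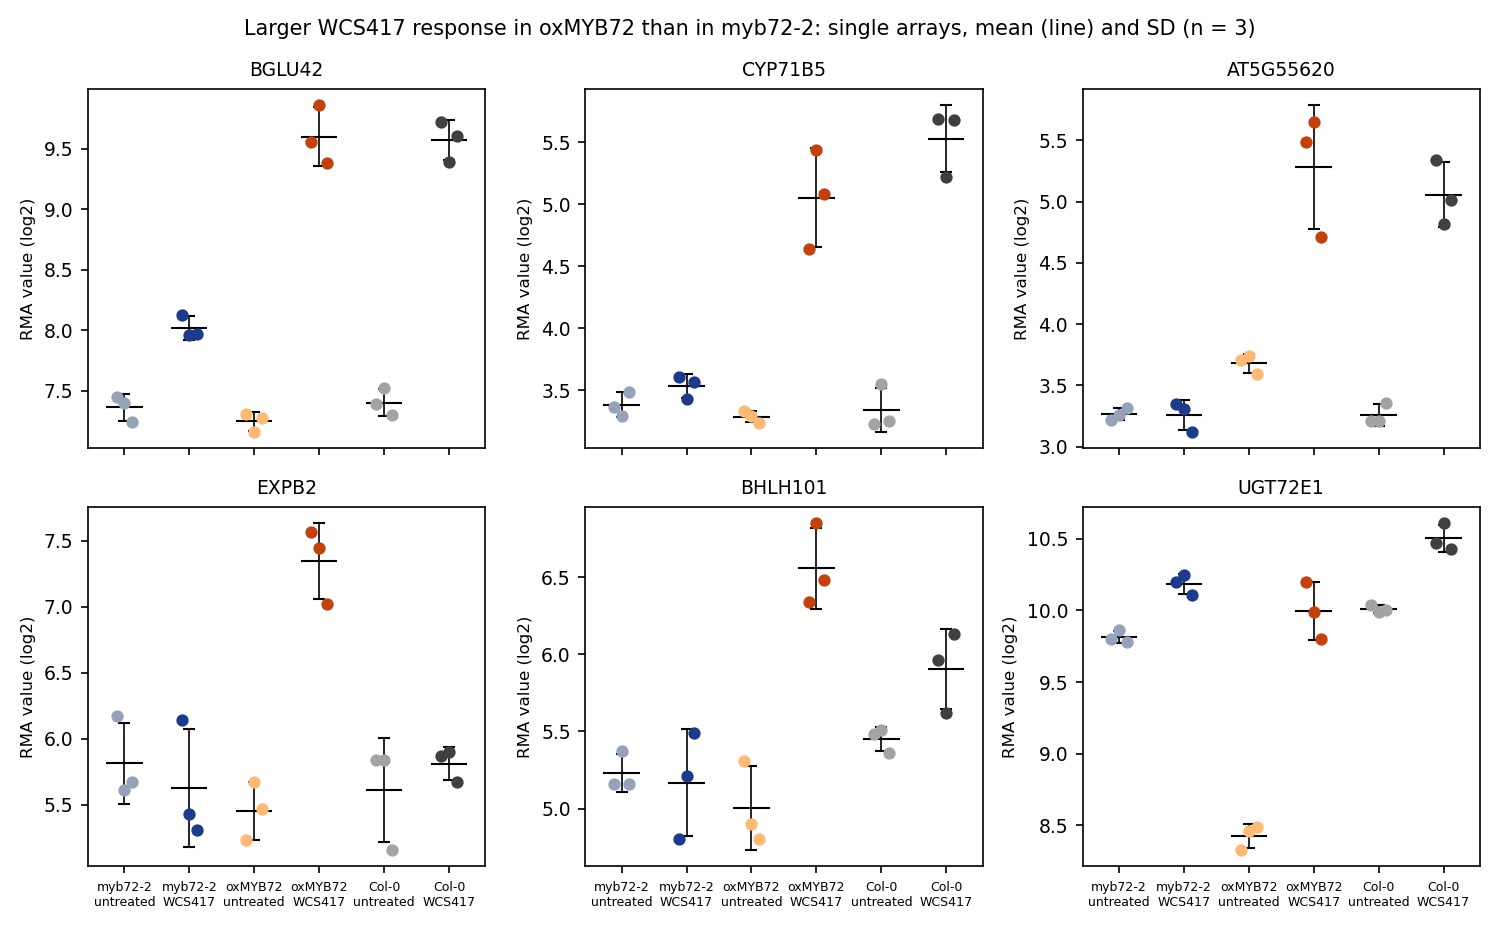
RMA level (vertical axis, log2) of 6 genes with a larger WCS417 response in oxMYB72, by group (horizontal axis); points are single arrays, lines are means and bars are SD (n = 3). In the upper row the colonized oxMYB72 and Col-0 arrays stand above the colonized myb72-2 arrays. In the lower row EXPB2 and BHLH101 are highest in colonized oxMYB72, and UGT72E1 is lowest in untreated oxMYB72.

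Across the 25 gene lists, 16 had a measured member and 14 had at least 3. Pattern-triggered immunity genes had the lowest median response difference, -1.72. Only 6 of the 28 genes on that list were measured, and 3 of the 6 encode precursors of the same PIP peptide family. The list was chosen with earlier results of these data known. Of the 6 measured members 4 were called smaller and none larger (1.86% and 0.928% of all probe sets). Besides the 3 peptide precursors these included BIK1, a receptor-associated immune kinase, looked at after its values were seen (-0.61 ± 0.15), which was called in 9 of 18 alternatives. The immune regulators WRKY53 (-0.28 ± 0.2) and WRKY22 (0.32 ± 0.17) were measured and not called. Of 22 berberine bridge enzyme-like genes 7 had a smaller and 1 a larger response (1.86% and 0.928% of all probe sets), and the median was -0.19. Beside the 4 on chromosome 1 described above, the smaller responses were those of AT4G20830 (-1.11), AT5G44380 (-0.66) and AT1G30700 (-0.63). The member with a larger response, AT5G44400 (1.12 ± 0.28, looked at after its values were seen), was called in 10 of 18 alternatives. These medians stand beside 0.05 over all probe sets.

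Several lists held no called member. None of 6 root hair genes, 10 xyloglucan endotransglucosylases, 7 auxin genes or 8 cell division genes was called in either direction, and their median response differences were -0.08, 0.05, 0.17 and 0.22. XTH26, a root hair xyloglucan enzyme, rose by 2.5 in the mutant and 2.29 in oxMYB72 (response difference -0.21 ± 0.27). Neither of 2 measured jasmonate genes, PDF1.2 (0.08 ± 0.22) and THI2.1 (-0.17 ± 0.2), was called. Of 18 expansins EXPB2 was called larger (0.928% of all probe sets), and the median was 0.19. A median near 0 does not show that the members of a list responded alike.

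Low-oxygen response genes had a median of 0.44 with 1 of 8 called larger (0.928% of all probe sets). That gene was AT4G10270, a wound-responsive family protein also induced by hypoxia. It stood at 4.25, 4.33 and 4.32 and then 5.38, 4.95 and 5.05 in myb72-2, and at 4.12, 4.49 and 4.22 and then 6.35, 6.23 and 5.93 in oxMYB72. It rose in both lines, by 0.83 ± 0.17 and 1.89 ± 0.17, and its response difference was 1.07 ± 0.24 (adjusted p = 0.0123). AT5G10040, looked at after its values were seen, had a response difference of 1.19 ± 0.35 that was not called (adjusted p = 0.077). Over the alternatives between 1 and 3 members were called.

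Nuclear photosynthesis genes mark green tissue, which a root sample can hold in traces. All 7 measured members fell with WCS417 in both lines, with a median of -1.05 in myb72-2 and -0.63 in oxMYB72. Their summed log2 level lay between 10.27 and 10.32 in untreated and 9.05 and 9.38 in colonized myb72-2 roots, and between 9.81 and 10.13 and then 9.19 and 9.47 in oxMYB72. The fall was 1.09 in the mutant and 0.63 in oxMYB72 on that scale. The members PSAE-1 (0.67 ± 0.18, adjusted p = 0.0477) and PSBY (0.63 ± 0.16, adjusted p = 0.0396), small subunits of photosystems I and II, were called with a larger response (0.928% of all probe sets), and lost their calls in 14 and 13 of 18 alternatives. The part of this shift in the larger responses was not tested.

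**Figure D5:**
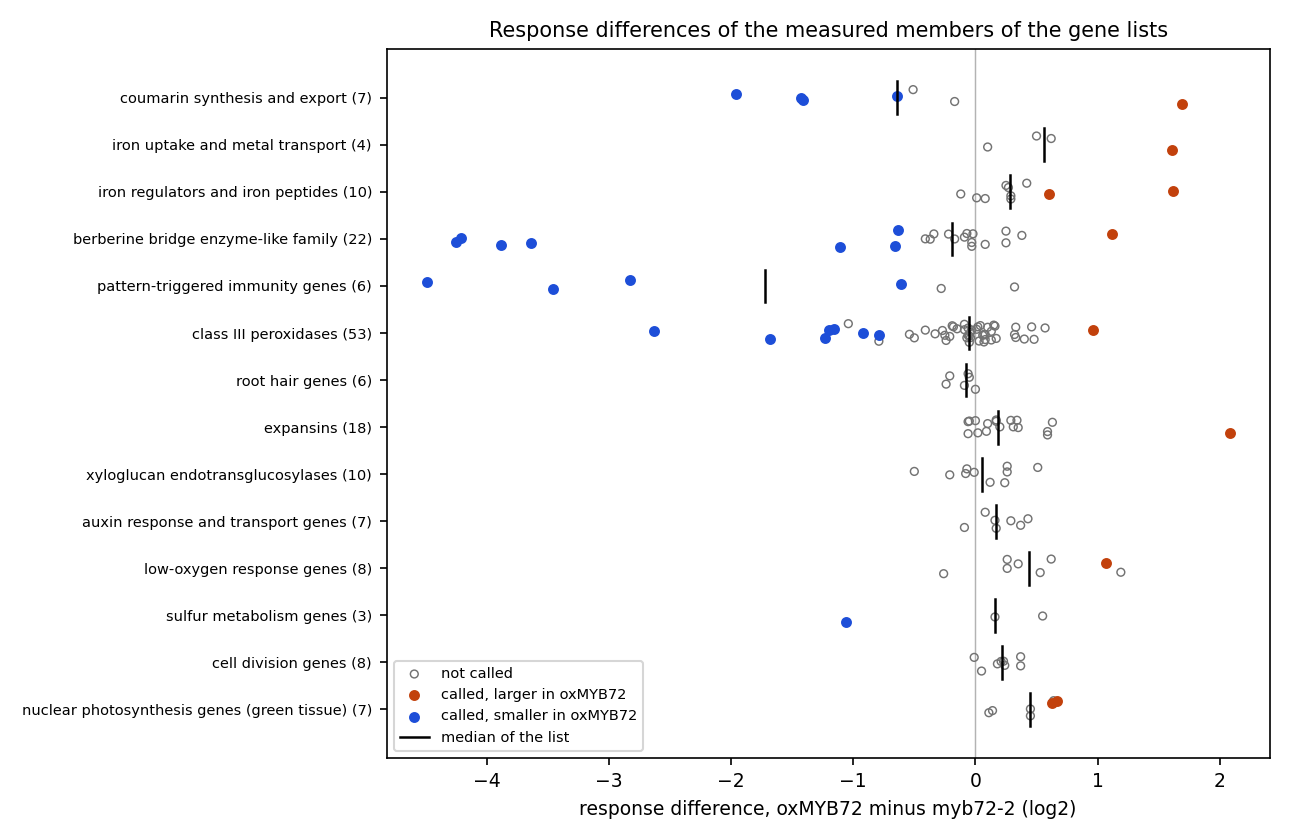
Response difference (horizontal axis, log2) of every measured member of the 14 gene lists with at least 3 measured members (vertical axis, number measured in brackets). Open points were not called, filled points were called, and black bars are list medians. Immune peptides and a group of berberine bridge enzyme-like genes lie far to the left, and the median of the low-oxygen and green tissue lists lies right of 0.

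The Col-0 arrays do not enter the estimate of the response difference, but through the shared spread of the fit they helped decide which probe sets were called. For 398 of the 422 smaller responses (94.3%) the Col-0 response was nearer to that of myb72-2 than to that of oxMYB72. The same share over all probe sets was not computed, here or for the larger responses below, so these shares have no baseline beside them. Of these 422 probe sets 287 rose in Col-0 (68.0%, against 6.38% of all probe sets tested), 25 fell (5.92%, against 8.96%) and 110 were not called. Their median effect in Col-0 was 0.71, beside 0.84 in myb72-2 and -0.25 in oxMYB72. Where the calls came from the 12 arrays compared alone, 340 of 355 (95.8%) were nearer to myb72-2 and 261 (73.5%) rose in Col-0. With 1 array left out the share nearer to myb72-2 was 85.1% to 96.8%, the lowest without myb72-2 WCS417 replicate 3, where 65 and not 24 were nearer to oxMYB72. AT3G24510 rose by 5.3 ± 0.18 in Col-0, AT4G37290 by 4.19 ± 0.19, AT1G26410 by 4.69 ± 0.26 and AT5G42830 by 2.79 ± 0.15.

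For the larger responses Col-0 was nearer to myb72-2 at 169 of 211 (80.1%) and nearer to oxMYB72 at 42 (19.9%). Without myb72-2 WCS417 replicate 3 it was nearer to myb72-2 at 144 of 235 (61.3%) and nearer to oxMYB72 at 91 (38.7%). Leaving out any other array gave shares nearer to myb72-2 of 76.4% to 88.0%, with counts down to 94 of 113 without oxMYB72 control replicate 2. Called from the 12 arrays compared alone, 103 of 124 (83.1%) were nearer to myb72-2. Of the 211, Col-0 rose at 39 (18.5%), fell at 58 (27.5%) and was not called at 114. BGLU42, CYP71B5 and AT5G55620 were among the 42, with the Col-0 rises of 2.17, 2.19 ± 0.16 and 1.79 beside rises of 2.35, 1.77 ± 0.16 and 1.61 ± 0.17 in oxMYB72. EXPB2, AT3G29970 and BHLH101 were nearer to the mutant.

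Some genes that lie next to each other were both called. Of 13217 loci 306 were called (2.32%). Of 5197 pairs of measured neighbours both genes were called in 12 pairs (0.231%), with the same sign in 10 and opposite signs in 2. The share of single loci is not a baseline for pairs, and none was computed. Same-sign pairs included AT1G26380 with AT1G26390, AT1G26410 with AT1G26420, and AT3G12900 with AT3G12910 (-1.41 and -1.71). The pairs of opposite sign were AT4G33710 with AT4G33720, and AT4G26120 with AT4G26130 (-1.47 and 0.52). These pairs were listed after their values were seen.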

How the data were processed

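Whole-root RNA was hybridized to Affymetrix ATH1 arrays, and each array's group and replicate number were taken from its title. The authors produced the deposited log2 values with RMA, per the submitters' processing notes, in a version not given in the sources used here. RMA usually equalizes the distributions of arrays and compresses differences near background, so a shift common to most genes would be hidden. Precision is limited by the number of arrays. The table holds 22810 probe sets, from which 64 control probe sets were removed, leaving 22746 for testing.

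Names were taken from the annotation of the array platform. Symbols were brought up to date by gene identifier with RefSeq genes on TAIR10.1, used also to find neighbouring genes. A single gene was given for 13513 probe sets (59.4%) and several genes for 503, while 8730 had none in that annotation. A locus was found for 13436 of the single-gene probe sets.

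All 18 arrays entered one limma fit (version 3.58.1 in R 4.3.3) with a mean for each group and eBayes moderation. P-values are two-sided and Benjamini-Hochberg adjusted over the 22746 probe sets, and "called" means an adjusted p under 0.05. Every adjusted p in the text is from this fit unless an alternative is named beside it. A value after ± is the standard error from this fit unless given as SD. The code was tested on simulated data.

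Genes were named by a rule: the 12 largest called differences in each direction, up to 4 in each direction whose gap between the lines was called in untreated or in colonized roots alone, up to 4 with opposite responses, up to 3 called members a list, and BGLU42, CYP71B5 and AT5G55620. Other genes are marked in the text or given as list members. Each list member was read from its brightest probe set. The comparison, the lists and the named genes were chosen with earlier results of these data known. The 25 lists hold 496 loci, and 166 of them were read, each from a probe set with that single gene named. Other loci may be on the array without a name in the annotation used. The suberin, xylem, phloem, root cap, root meristem, ferritin, glucosinolate, salicylic acid and ethylene lists had no member read in this way and were not analysed here, and the endodermis list had 1, GSO1 (-0.2, not called). Promoter sequences were not analysed here.

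The alternatives were quantile normalization applied again, centring on the array median, eBayes with a variance trend and robust moderation, a fit to the 12 arrays compared, leaving out the dimmest 30% of probe sets, the replicate number as a block, and leaving out single arrays, 12 in all. Figures used matplotlib 3.10.9 and Python 3.11.15.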

Additional observations from a re-analysis of the deposited data

Results flagged for a closer look

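The results listed here are effects of WCS417 that differed between oxMYB72 and myb72-2 by the test of the difference itself in limma, with 3 arrays in each of 4 groups. No sample was tested for standing apart within its group, since groups of 3 are too small for that. The difference passed the threshold at 633 probe sets, 211 with a larger and 422 with a smaller response in oxMYB72.

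Among named genes the larger responses were those of AT5G14650 (2.23), EXPB2 (2.08), AT4G33710 (1.9), BGLU42 (1.69), BHLH101 (1.62), AT5G55620 (1.61), CYP71B5 (1.61), AT5G37450 (1.52), PR-1-LIKE (1.51), SP1L2 (1.28), AT3G29970 (1.24), AT1G70880 (1.23), UGT72E1 (1.2), AT4G10270 (1.07), PSAE-1 (0.67), PSBY (0.63) and AT1G18910 (0.6), each a response difference on the log2 scale.

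The smaller responses nearest to 0 among named genes were those of SUFE2 (-1.06), AT5G39580 (-1.23), AT3G13610 (-1.43), AT5G19880 (-1.68), CCOAMT (-1.96), AT2G29340 (-1.98), AT5G53990 (-2.24), AT3G60270 (-2.39), AT1G22890 (-2.57), AT5G06730 (-2.63), AT3G16530 (-2.78) and AT4G28460 (-2.83). Those further from 0 were AT5G38900 (-3.2), AT2G23270 (-3.46), AT3G18250 (-3.51), AT5G22555 (-3.55), AT1G26390 (-3.64), AT5G42830 (-3.65), AT1G26380 (-3.88), AT5G38910 (-4.15), AT1G26420 (-4.21), AT1G26410 (-4.25), AT4G37290 (-4.49) and AT3G24510 (-4.82).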

How the results depend on the processing

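The 633 called response differences became 609 after a further quantile normalization, 612 after median centring, 698 with a variance trend and robust moderation, 479 with only the 12 arrays compared, 623 without the dimmest 30% of probe sets, and 443 to 672 with 1 array left out. Of the 612 and 479, 546 and 473 were among the 633. The larger responses were 124 of these after median centring and also 124 with only the 12 arrays compared, against 211, and 113 to 236 with 1 array left out. The lowest of these counts were 113 without oxMYB72 control replicate 2, 126 without oxMYB72 WCS417 replicate 2, 127 without myb72-2 control replicate 3 and 134 without myb72-2 control replicate 1. The cause was not tested. Smaller responses numbered 325 to 437 with 1 array left out. The titles give the groups shared replicate numbers, but same-numbered arrays did not deviate together (correlations from -0.196 to 0.235, 5 of 18 pairs over 0.1). Arrays of different groups and different numbers had correlations from -0.408 to 0.332. With the replicate number as a block 615 differences were called, 202 larger and 413 smaller, and of the named genes PSAE-1 lost its call. None of the 41 named genes changed direction under any of the 18 alternatives that gave it a value, and calls were lost by AT4G33710, AT1G18910, PSAE-1, PSBY and AT1G26380. Counts by kind of response, and calls within lists, were recomputed as alternatives chosen after seeing the data. Probe sets near background, such as CYP71B5 in untreated roots, bound what a fold can show, and 3 arrays a group limit the precision.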

Other observations

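Enzyme families were counted by gene symbol after the calls had been seen, so these counts are descriptions, and genes known here by a locus number alone, such as the glycosyltransferase AT5G53990 (-2.24), are not in them. Over all probe sets 1.86% were called smaller and 0.928% larger. Of 47 UDP-glycosyltransferases with a family symbol, which attach sugars to small molecules, 5 had a smaller WCS417 response in oxMYB72 than in myb72-2 and 1 a larger one, UGT72E1. The 5 were UGT87A2, UGT71C3, UGT73B4, UGT73D1 and UGT84B1, with UGT84B1 at -1.25. Of 26 cytochromes P450 1 was called smaller and 2 larger, with values from -1.62 to 1.61. Of 13 glutathione transferases GSTU20 was called, with a larger response (1.1). Of 5 measured CLE genes, which encode small signalling peptides, CLE41 and CLE26 had larger responses. None of 6 WRKY genes was called, and their median response difference was 0.11.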
